A study of Mus musculus with 3 samples.

Results

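Adipogenesis-regulatory cells (Aregs) are a stromal population of adipose tissue known by surface expression of F3 (CD142) and for restraining the adipocyte differentiation of neighbouring progenitors. They share the lineage marker *Pdgfra* with interstitial progenitors, which carry *Dpp4* and *Pi16*, and with committed preadipocytes, which carry *Icam1* and *Pparg*. Matrix Gla protein, encoded by *Mgp*, is a secreted vitamin K-dependent protein that binds bone morphogenetic proteins (BMPs) and inhibits calcification. *Mgp* is the gene deleted in the knockout animals here. Areg cells were chosen by their own counts, as barcodes with at least 2000 unique molecular identifiers (UMIs) and at most 10% of them from mitochondrial genes, at least 1 UMI of *Pdgfra*, at least 2 of *Gdf10*, at least 1 of *Fmo2*, at most 4 of *Pi16*, none of *Epcam* or *Pecam1* and at most 1 of *Top2a*. This gave 1516 Areg cells among 23175 *Pdgfra*-positive cells and 31905 cells in all.

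The study sequenced the stromal vascular fraction of inguinal fat from 4-week-old mice, after CD45-positive and dead cells had been removed by sorting. There was 1 library for each of 3 genotypes, made from pooled mice of both sexes. The wild-type (WT) library held 752 Areg cells, the library of mice with global *Mgp* deletion (*Mgp*-KO) held 434, and the library of mice in which Cre under *Pdgfra* control deleted floxed *Mgp* (*Pd*-KO) held 330. Floxed mice without Cre were not analysed here, so the WT library stands against both knockouts. With 1 library per genotype no difference between genotypes has a replicate check. All intervals given are 95% and cover counting error only.

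The WT library stood apart before any gene was compared. Its header named Cell Ranger 4 and those of both knockouts named Cell Ranger 7.1.0, although the labels give all 3 libraries the same batch. It also held 184102026 UMIs against 93212243 in *Mgp*-KO and 83942865 in *Pd*-KO. Areg cells had a median of 11652.5 UMIs in WT, 5302.5 in *Mgp*-KO and 7245 in *Pd*-KO. In each library they were shallower than the other *Pdgfra*-positive cells, whose medians were 14727, 6978 and 9550 UMIs. Barcodes shared between libraries numbered 22, 18 and 18 among *Pdgfra*-positive cells for the 3 pairs of libraries and 0 among Areg cells.

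The label was set against 4 Areg markers that the membership rule did not use, chosen with earlier results of these data known. These were *F3*, which encodes tissue factor, *Clec11a*, which encodes a secreted growth factor for skeletal progenitors, *Meox2*, a homeobox transcription factor, and *Vit*, which encodes the matrix protein vitrin. *F3* stood at 268 CPM (UMIs summed over cells and scaled to a common library total) in WT Areg cells, 326 in *Mgp*-KO and 532 in *Pd*-KO, against 43.0, 42.3 and 35.3 in the other *Pdgfra*-positive cells. *Clec11a* stood at 227, 147 and 312 CPM against 31.7, 17.0 and 30.7. Both markers were therefore several times higher in the Areg cells of every library. *Meox2* stood at 123, 107 and 331 CPM against 16.8, 9.05 and 19.4, and *Vit* at 113, 102 and 168 CPM against 10.6, 10.1 and 17.4. Summed over all Areg cells, the 4 markers were thus higher than in the other *Pdgfra*-positive cells in all 3 libraries. *Pd*-KO Areg cells had the highest level of each. Because of how the markers were chosen, these values describe the cells and are no independent check of the name.

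At equal depth, with each cell thinned to 3000 UMIs, *F3* was detected in 44.9% of WT Areg cells, 47.0% of *Mgp*-KO and 65.6% of *Pd*-KO. Endothelial cells, which should lack it, gave 1.22%, 2.40% and 0.442% at the same depth. Before thinning the Areg shares were 71.0%, 60.1% and 79.1%, and the endothelial shares 3.43%, 2.05% and 0.867% at median depths of 6815, 3641 and 4111 UMIs. *Meox2* is not confined to Areg cells: 25.5%, 20.8% and 31.0% of thinned endothelial cells held it, against 28.0%, 25.4% and 53.3% of Areg cells. None of the 4 markers was seen in 25.3% of thinned Areg cells in WT, 30.6% in *Mgp*-KO and 14.5% in *Pd*-KO. All 4 were seen in 3.33%, 3.98% and 12.6%. In the other *Pdgfra*-positive cells the share without any of them was 79.5%, 84.1% and 79.9%.

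**Figure D1:**
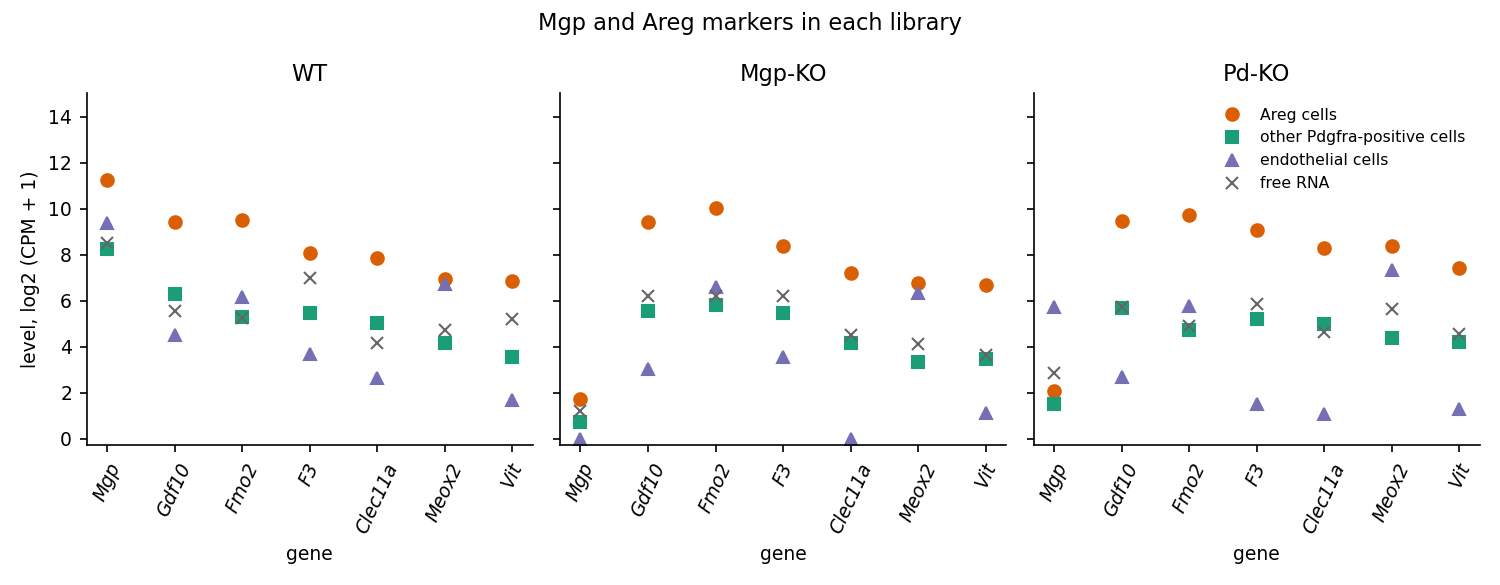
Level of *Mgp*, of the rule genes *Gdf10* and *Fmo2* and of 4 further Areg markers, as log2 (CPM + 1), in Areg cells (circles), other *Pdgfra*-positive cells (squares), endothelial cells (triangles) and free RNA from barcodes of 10 to 100 UMIs (crosses), with a panel for each library. Areg cells lie above the other *Pdgfra*-positive cells for all 4 further markers in every library, while *Mgp* in Areg cells is high only in the WT panel.

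Few RNAs of other cell types were found in Areg cells. The rule had left out cells with *Epcam*, *Pecam1* or more than 1 *Top2a* UMI, which favoured low epithelial, endothelial and cycling sums beforehand. Of cells within the other limits, these 3 genes removed 131 of 883 in WT, 15 of 449 in *Mgp*-KO and 19 of 349 in *Pd*-KO. The leukocyte list summed to 6.76 CPM in WT, 2.67 in *Mgp*-KO and 3.19 in *Pd*-KO, with *Cd74* the most abundant gene in WT and *Lyz2* in both knockouts. *Ptprc*, which encodes CD45, was at 0 UMIs in the Areg cells of both knockouts. The mesothelial list summed to 0.312, 0.764 and 0.399 CPM, with *Msln* and *Wt1* at 0 in all 3 libraries. The 7 epithelial markers other than *Epcam* summed to 37.0, 6.49 and 3.19 CPM, led by *Krt19*, and the 7 endothelial markers other than *Pecam1* to 43.9, 52.0 and 54.7 CPM, led by *Tek*. Mural markers had higher sums, with 338 CPM in WT, 63.8 in *Mgp*-KO and 154 in *Pd*-KO. These lay below the 560, 162 and 164 CPM of the other *Pdgfra*-positive cells and the 1256, 512 and 557 CPM of free RNA. *Acta2*, smooth muscle actin, led that list in WT at 129 CPM. Early adipocyte markers summed to 99.5, 33.2 and 57.1 CPM, most of it *Car3*, and Schwann markers to 76.3, 45.8 and 61.5 CPM, most of it *S100b*. The cycling genes left after *Top2a* summed to 13.0, 4.58 and 24.7 CPM. For some of these genes a few cells carried much of the sum. In *Pd*-KO 5 cells held 81.8% of *Mki67* and 92.9% of *Car3* UMIs. Such a share was 76.1% for *Car3* in *Mgp*-KO and 55.7% for *Rgs5* in WT. Others were more widely spread. In WT 5 cells held 5.42% of *S100b*, 11.3% of *Tek* and 13.2% of *Krt19* UMIs, though *Tek* reached 41.8% in *Pd*-KO.

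The edges of the rule show what it kept. WT cells with exactly 2 *Gdf10* UMIs (100 cells) held the 4 further markers at a summed 306 CPM, and cells with 1 *Gdf10* UMI that met every other limit (157 cells) at 222 CPM. At the *Fmo2* edge the WT sums were 277 CPM inside (150 cells) and 115 CPM outside (735 cells). At the *Pi16* edge they were 1012 CPM for 3 or 4 UMIs (84 cells) and 899 CPM for 5 or 6 (38 cells). In *Mgp*-KO the same 3 pairs were 409 and 341, 263 and 125, and 760 and 529 CPM, and in *Pd*-KO they were 1018 and 720, 580 and 208, and 1010 and 535 CPM. Marker RNA was thus lower just outside each limit in every library. The *Pi16* pairs rested on only 23 and 16 cells in *Mgp*-KO and 8 and 14 in *Pd*-KO. In WT the cells just outside the *Pi16* limit held more marker RNA (899 CPM) than the Areg cells as a whole (731 CPM), while in both knockouts they held less. All cells left out by *Pi16* alone held 596 CPM in WT, 396 in *Mgp*-KO and 411 in *Pd*-KO, against 731, 682 and 1343 in the Areg cells. Of the WT cells that met the *Pdgfra*, *Gdf10* and *Fmo2* limits, 183 of 1066 were lost to *Pi16*, against 62 of 511 in *Mgp*-KO and 77 of 426 in *Pd*-KO.

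The genes that differed between these cells and their neighbours were described next, by the ratio of CPM in Areg cells to CPM in other *Pdgfra*-positive cells. Since the rule chose the cells on the same counts, these ratios are a description without a test. Of 6407 genes with a mean of at least 20 CPM in either group, 145 (2.26%) were higher by 2-fold or more in all 3 libraries and 118 (1.84%) were lower. Without the WT library the counts were 208 and 189.

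Genes outside the rule with a mean of at least 50 CPM were ranked by the smallest of their 3 ratios. *Hhip*, a membrane-anchored inhibitor that binds Hedgehog ligands, ranked first. It stood at 46.7 CPM in WT Areg cells (95% interval 42.5 to 51.2), 64.2 in *Mgp*-KO (54.8 to 74.6) and 152 in *Pd*-KO (138 to 169). The other *Pdgfra*-positive cells had 4.59, 4.36 and 5.46 CPM, which gave log2 ratios of 3.35, 3.88 and 4.80. At deposited depth *Hhip* was seen in only 26.9%, 21.9% and 36.4% of Areg cells, against 4.27%, 2.03% and 2.76% of the others. In *Pd*-KO 5 cells held 20.9% of its Areg UMIs. *Tspan11*, a tetraspanin, stood at 102, 67.6 and 285 CPM against 10.5, 6.80 and 12.8, with log2 ratios of 3.29, 3.32 and 4.48. For both genes the group levels lay far apart in every library, and *Pd*-KO had the largest ratio. *Vit* followed with 3.42, 3.34 and 3.27, *Ccbe1*, a secreted factor of lymphatic growth, with 3.12, 3.81 and 4.07, and *Tent5c*, a poly(A) polymerase, with 2.98, 3.05 and 4.24. *Meox2* had log2 ratios of 2.87, 3.56 and 4.10, *Clec11a* of 2.84, 3.11 and 3.35 and *F3* of 2.64, 2.95 and 3.91.

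Further genes among the 15 highest were *Arhgdib*, which encodes a GDP-dissociation inhibitor of small GTPases, *C2*, complement component C2, *Spock2*, a matrix proteoglycan, *Gria4*, a glutamate receptor subunit, *Bace2*, an aspartic protease, and *Cpe*, carboxypeptidase E. The log2 ratios of these 6 genes ran from 2.31 (*Cpe* in WT) to 3.77 (*Arhgdib* in *Pd*-KO). None of the 15 came near the Areg level in cells with more than 4 *Pi16* UMIs or in *Pi16*-low cells with at least 2 *Icam1* UMIs. *Hhip* was at 4.74, 1.45 and 1.49 CPM in the *Pi16*-high cells and at 4.18, 4.96 and 17.1 CPM in the *Icam1*-positive cells. Endothelial cells did hold *Meox2* (104, 78.5 and 158 CPM), *Bace2* (59.5, 47.6 and 52.2 CPM) and *Cpe* (129, 63.0 and 56.5 CPM).

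**Figure D2:**
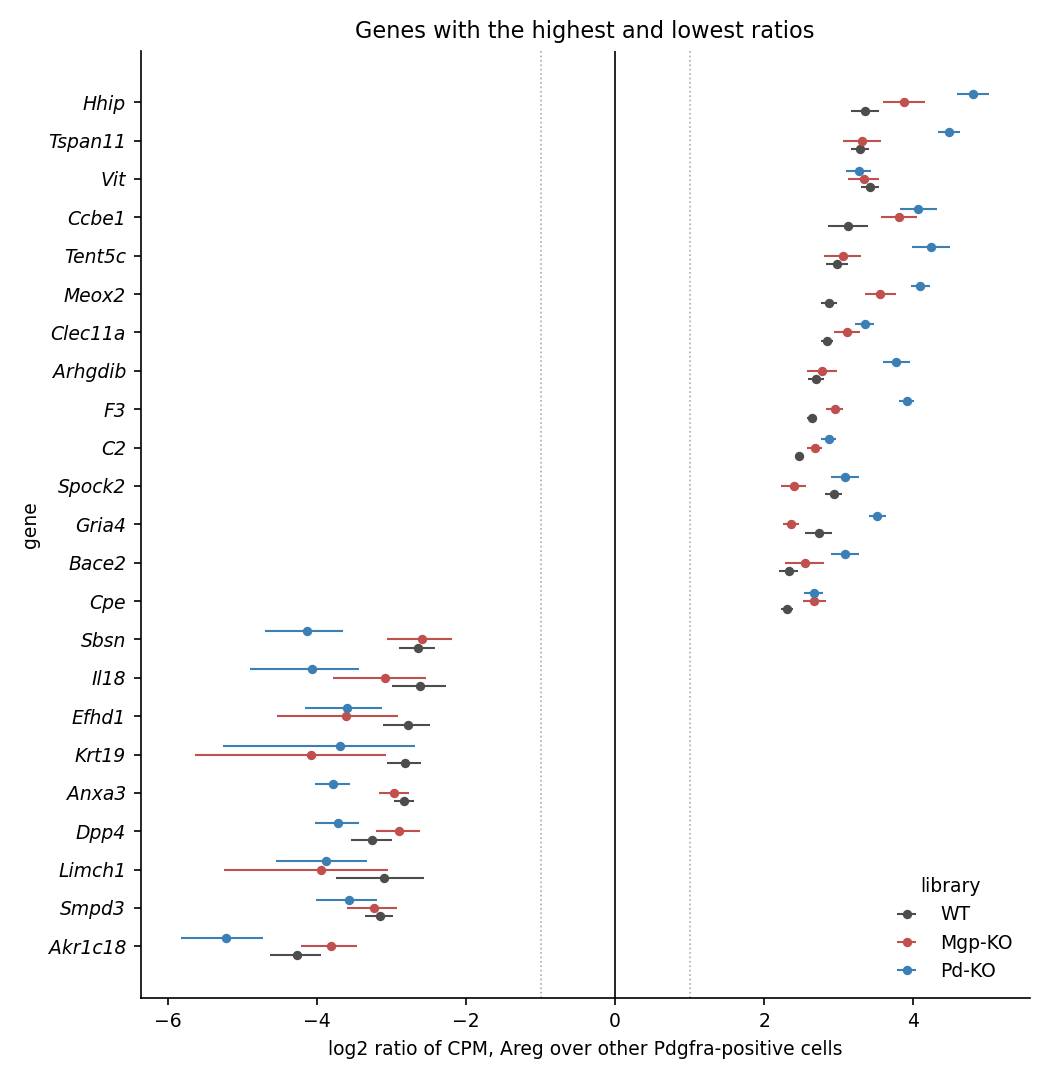
Log2 ratio of CPM in Areg cells over other *Pdgfra*-positive cells (horizontal axis, lines are 95% counting intervals, dotted lines mark 2-fold) for 14 of the 15 genes with the highest and 9 of the 10 genes with the lowest ratios, coloured by library. *Glycam1* is left out because it had 0 UMIs in *Mgp*-KO Areg cells; all points lie beyond 2-fold in all 3 libraries.

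Of the 10 genes with the lowest ratios, 8 were higher in the *Pi16*-high cells than in the whole set of other *Pdgfra*-positive cells in every library, and *Krt19* and *Glycam1* were not. *Akr1c18*, an aldo-keto reductase that inactivates progesterone, stood at 7.60, 23.3 and 11.6 CPM in Areg cells and at 147, 330 and 439 CPM in the others. Its log2 ratios were -4.26, -3.81 and -5.22. *Dpp4*, the dipeptidyl peptidase that marks interstitial progenitors, stood at 11.7, 36.3 and 37.9 CPM against 112, 272 and 501, with log2 ratios of -3.26, -2.90 and -3.72. Both were most abundant in the *Pi16*-high cells, where *Dpp4* reached 284, 472 and 688 CPM. *Smpd3*, a neutral sphingomyelinase, *Anxa3*, an annexin, *Limch1*, *Efhd1*, *Il18*, a cytokine of the interleukin-1 family, *Sbsn*, suprabasin, and the keratin gene *Krt19* were lower in the same direction in all 3 libraries. The rule capped *Pi16*, so cells rich in those 8 genes were largely outside the Areg group beforehand. It also left out cells with any *Epcam* or *Pecam1* UMI, which favoured low values of the epithelial marker *Krt19* and of *Glycam1*. How far this set their ratios was not tested. *Krt19* stood at 78.1, 40.9 and 30.9 CPM in the *Pi16*-high cells and at 117, 41.9 and 33.6 in the whole set of other *Pdgfra*-positive cells, of which the *Pi16*-high cells are a part. *Glycam1*, a mucin-like ligand of L-selectin that was also abundant in endothelial cells and free RNA, stood at 70.6 CPM in WT Areg cells and 2.79 in *Pd*-KO, and at 0 of 2617845 UMIs in *Mgp*-KO, which allows up to 1.15 CPM.

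Hedgehog genes were looked at as a list after their values had been seen. Of the 14 genes 10 were tested, and 4 were higher by 2-fold or more in all 3 libraries (among them *Hhip*, *Ptch1* and *Boc*) with none lower. Over all 6407 genes tested 2.26% were higher and 1.84% lower, and a list made after its values were seen allows no test against these shares. *Hhip* and *Ptch1* reached the tested level only in Areg cells, which set their direction. The median log2 ratio of the list was 0.55 in WT, 0.40 in *Mgp*-KO and 0.71 in *Pd*-KO, and that of all genes tested was -0.08, -0.05 and 0.05. *Ptch1*, the principal receptor, stood at 26.8, 19.5 and 41.5 CPM against 9.32, 9.39 and 11.2, and *Boc*, a co-receptor, at 34.6, 60.0 and 122 CPM against 13.4, 25.9 and 31.9. The transcription factor *Gli1* missed the level required for testing, with 17.4, 13.8 and 27.1 CPM against 2.29, 1.14 and 1.62. At deposited depth *Gli1* was seen in only 18.5%, 7.83% and 17.6% of Areg cells and *Ptch1* in 22.5%, 11.1% and 20.9%. *Hhip*, *Ptch1* and *Gli1* are known as transcriptional targets of the pathway. The 6 other tested members were not past 2-fold in all 3 libraries. *Smo*, the signal transducer, had log2 ratios of 0.09, 0.10 and 0.35 and *Gli3* of 0.08, -0.19 and 0.09. Ligand RNA was at or near 0 in Areg cells, with no UMI of *Shh* in any library, 1 of *Ihh* in *Mgp*-KO and 2 of *Dhh* in WT. A count of 0 allows up to 0.312 CPM in WT, 1.15 in *Mgp*-KO and 1.20 in *Pd*-KO. *Dhh* stood at 9.48, 16.6 and 10.9 CPM in endothelial cells and at 38.3, 1.27 and 2.09 CPM in free RNA, so the WT endothelial value lay below its background.

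Lists of marker genes, chosen with earlier results of these data known, were used to describe the Areg cells among the stromal types. All 4 Areg markers outside the rule were past 2-fold in all 3 libraries, as were 6 of 7 tested genes of a second Areg list (among them *C2*, *Igfbp3*, *Cygb*, *Epha3* and *Bgn*). *Mgp*, the seventh, was past 2-fold in WT and, at 2.29 against 0.636 CPM, in *Mgp*-KO, but not in *Pd*-KO. The *Mgp*-KO ratio rested on 6 UMIs, near the 1.27 CPM of free RNA, and is not a marker call. The cap on *Pi16* largely kept cells rich in interstitial progenitor markers out of the Areg group beforehand. Among these markers 8 of 10 tested were lower and none was higher, with list medians of -2.36, -2.54 and -3.28. The exceptions were *Ly6c1*, at 369, 300 and 271 CPM against 692, 827 and 925, and *Cd9*, which was higher in Areg cells at 340, 426 and 442 CPM against 182, 198 and 132. Of 12 preadipocyte markers tested 0 were past 2-fold in all 3 libraries, a count that the 2.26% and 1.84% of all genes would also give. *Fabp4* was lower in WT and *Pd*-KO, and *Apoe*, *Col4a1* and *Col15a1* were higher in *Pd*-KO alone. The list medians were -0.14, 0.32 and 0.25. *Icam1* stood at 120, 180 and 41.9 CPM in Areg cells and 111, 118 and 24.8 in the others. Of 7 genes that mark *Fgf10*-positive stroma *Sdc1* was lower in all 3 libraries. In single libraries *Slit2* was lower (WT) and *Cdh11* higher (*Pd*-KO). Counts of list members stand for genes past 2-fold in all 3 libraries unless a library is named. Over all 6407 genes, 188 were higher and 170 lower in WT, 205 and 212 in *Mgp*-KO, and 306 and 290 in *Pd*-KO. *Pparg*, the master regulator of adipogenesis, stood at 30.2, 37.4 and 38.3 CPM against 53.8, 43.5 and 68.7.

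In the BMP and TGF-β system the ligands gave 1 lower gene (*Bmp7*) and none higher among 6 tested in all 3 libraries. Over all 6407 genes tested 2.26% were higher and 1.84% lower in all 3 libraries, and the counts in this paragraph were not tested against these shares. In *Pd*-KO alone *Tgfb3* was higher and *Tgfb2* lower. *Bmp7* had 15 UMIs in WT Areg cells and reached the tested level only in the other cells, which set its direction. Of 12 antagonists and modulators tested 3, among them *Chrdl1* and *Smoc2*, were higher by 2-fold or more in all 3 libraries and none was lower. *Chrdl1*, which encodes a chordin-like BMP antagonist, stood at 223, 261 and 356 CPM against 71.1, 115 and 153, and *Smoc2* at 248, 285 and 432 CPM against 89.4, 91.6 and 123. Noggin (*Nog*) was below the level required for testing, at 4.79, 13.0 and 13.6 CPM against 0.332, 0.378 and 0.334. *Chrdl1* was seen in 72.5%, 62.2% and 74.8% of Areg cells and *Smoc2* in 80.1%, 64.3% and 82.1%. *Nog* was seen in only 4.65%, 5.53% and 6.36%. The part of free RNA in these values was not tested. Among 9 receptors tested only *Acvr2a*, a type 2 receptor for activins and BMPs, was past 2-fold, at 96.4, 156 and 306 CPM against 46.2, 72.8 and 109. Among 12 response genes *Id4*, *Ccn2* and *Tgfbi* were higher and *Postn*, periostin, was lower. *Tgfbi*, a matrix protein induced by TGF-β, stood at 284, 302 and 447 CPM against 74.7, 111 and 91.2. *Id1*, a direct BMP target, stood at 42.9, 39.3 and 16.4 CPM against 64.6, 49.1 and 17.5 and was not past 2-fold.

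No fibrillar or network collagen of 15 tested was past 2-fold in all 3 libraries, although in *Pd*-KO alone *Col4a1*, *Col4a2* and *Col15a1* were higher and *Col12a1* lower. Over all 6407 genes tested 2.26% were higher and 1.84% lower in all 3 libraries, shares that would also give no collagen. In *Pd*-KO alone 306 were higher and 290 lower. *Col1a1* stood at 18858, 13259 and 23045 CPM against 11587, 10301 and 19758. Of 9 small leucine-rich proteoglycans *Bgn*, *Fmod* and *Podn* were higher in all 3 libraries, and *Aspn* was lower in both knockouts. Biglycan (*Bgn*) stood at 1857, 1762 and 2169.9 CPM against 572, 445 and 527, and fibromodulin (*Fmod*) at 24.0, 13.0 and 46.7 CPM against 5.33, 1.88 and 2.37. *Fmod* reached the tested level only in Areg cells, which set its direction. In the elastic fibre list of 12 genes *Fbln1* was higher, at 424, 482 and 376 CPM against 106, 164 and 153, and *Efemp1* and *Emilin2* were lower. Wnt antagonists went both ways, with *Dkk3* at 37.4, 56.5 and 92.2 CPM against 7.31, 12.0 and 10.8, and *Sfrp2* at 170, 280 and 156 CPM against 395, 607 and 749.

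Of 9 genes of the insulin-like growth factor axis, the binding proteins *Igfbp3* and *Igfbp7* were higher in all 3 libraries, whereas *Igfbp5* and *Igfbp6* were lower in both knockouts and *Igf2* in *Pd*-KO. *Igfbp7* stood at 3262, 3372 and 3816 CPM in Areg cells against 1332, 939 and 840 in the others. *Gas6*, the other vitamin K-dependent protein of the vitamin K list and a ligand of TAM receptors, stood at 195, 449 and 266 CPM against 67.0, 120 and 93.4 and was the 1 of 5 tested genes of that list higher by 2-fold or more in all 3 libraries. *Axl*, which encodes a receptor for its product, was lower by 2-fold or more in both knockouts. The γ-carboxylase gene *Ggcx*, whose product modifies both proteins, stood at 30.1, 19.9 and 26.7 CPM against 23.2, 15.4 and 19.6. Of 9 complement genes 2, among them *C2*, were higher and *Cd55* was lower. *Aldh1a3*, a retinaldehyde dehydrogenase, stood at 3.22, 14.5 and 2.39 CPM against 29.6, 55.9 and 118. The related *Aldh1a2* was detected at 4.37, 6.88 and 1.60 CPM against 0.193, 0.106 and 0.234, below the level required for testing. None of 9 adipogenic transcription factors and none of 15 dissociation stress genes was past 2-fold in all 3 libraries. Against the 2.26% and 1.84% of all genes tested, these counts describe the lists and were not tested.

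*Mgp* checked the genotype labels. It stood at 2450.5 CPM in WT Areg cells (2419 to 2482), 2.29 in *Mgp*-KO (0.841 to 4.99) and 3.19 in *Pd*-KO (1.38 to 6.29). The knockout values rested on 6 UMIs in 434 cells and 8 UMIs in 330 cells, with at most 1 in any cell. Free RNA held 359, 1.27 and 6.28 CPM. The WT Areg level was therefore well above free RNA, and the knockout levels were near it. In WT the other *Pdgfra*-positive cells had 299 CPM, below free RNA, the *Pi16*-high cells 418 and the *Icam1*-positive cells 144. Endothelial cells kept a signal in *Pd*-KO, at 51.8 CPM (43.6 to 61.1) against 651 in WT, and had 0 of 841201 UMIs in *Mgp*-KO, which allows up to 3.57 CPM. *Mgp* RNA was therefore close to absent from the Areg cells of both knockouts, and in *Pd*-KO it was higher in endothelial cells than in Areg cells.

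Within WT, Areg cells differed widely in *Mgp*. The lowest cell had 0 UMIs, the median 15 and the highest 284, and 12.6% of cells had none. At 3000 UMIs per cell 73.9% of WT Areg cells held *Mgp*, against 19.8% of other *Pdgfra*-positive cells and 20.1% of endothelial cells. The shares of the last 2 groups were alike, and the part of free RNA in them was not tested. *Mgp* and the Areg markers went together. In the 95 cells without *Mgp* UMIs *Clec11a* stood at 43.4 CPM, in the 135 cells with 1 to 4 at 124, in the 192 cells with 5 to 19 at 222 and in the 330 cells with 20 or more at 352. *Fmo2* stood at 203, 344, 759 and 1106 CPM across the same 4 classes. *Icam1* went the other way with 212, 152, 108 and 76.7 CPM, as did *Dpp4* with 25.8, 18.3, 7.87 and 5.15 CPM. The median depth also differed, at 14730, 13084, 10924 and 10906 UMIs, so the class with the least *Mgp* was the deepest. The part of depth in this pattern was not tested. *Mgp* was not used by the rule, whereas *Fmo2* was.

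Clustering separated the Areg cells into a core and a remainder. *Pdgfra*-positive cells were clustered within each library without the rule genes, *Mgp* and sex-linked genes. A single cluster held 566 of 752 Areg cells in WT (75.3%, 72.0 to 78.3), 316 of 434 in *Mgp*-KO (72.8%, 68.4 to 76.9) and 268 of 330 in *Pd*-KO (81.2%, 76.6 to 85.3). In turn Areg cells made up 62.1%, 51.1% and 46.8% of that cluster. Its leading genes in WT were *Tspan11*, *Vit*, *Klf5*, *Hhip* and *Tent5c*. In *Pd*-KO *Hhip*, *Csmd1*, *Ifitm1* and *Tspan11* were among the first 5. In *Mgp*-KO the first 3 were *S100a9* and *S100a8*, known from neutrophils, and the chemokine gene *Ccl21a*, followed by *Csmd1*, *Meox2*, *Ccbe1*, *Hhip* and *Vit*.

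*Mgp*, *Gdf10* and *Fmo2*, all left out of the clustering, were compared inside and outside that cluster. *Mgp* in WT stood at 3504 CPM in Areg cells inside, at 375 in Areg cells outside and at 4407 in cells of the cluster that failed the rule. *Gdf10*, a BMP family ligand, stood at 890.3, 275 and 623 CPM in WT, at 856, 365 and 259 in *Mgp*-KO and at 791, 422 and 289 in *Pd*-KO. *Fmo2*, a flavin-containing monooxygenase, stood at 1021, 155 and 561 CPM in WT, at 1475, 321 and 952 in *Mgp*-KO and at 1063, 248 and 338 in *Pd*-KO. *Gdf10* and *Fmo2* belong to the membership rule, which partly sets their levels in the cells that failed it, whereas *Mgp* does not. Areg cells outside the cluster held the least *Mgp* in WT, and the cells of the cluster that the rule missed resembled its members in *Mgp*. The markers that were used in clustering were also lower outside, which the clustering itself favours. *Clec11a* stood at 315 CPM inside and 53.5 outside in WT, 217 and 27.0 in *Mgp*-KO and 410 and 29.5 in *Pd*-KO. The other *Pdgfra*-positive cells had 31.7, 17.0 and 30.7 CPM. By *Clec11a* the Areg cells outside were thus nearer to those cells than to the Areg cells inside. The preadipocyte genes *Pparg* and *Icam1* had higher values outside, and both were likewise open to the clustering. *Pparg* stood at 13.8 CPM inside and 62.4 outside in WT, 16.9 and 72.6 in *Mgp*-KO and 20.4 and 89.9 in *Pd*-KO. Each value outside was above that of the other *Pdgfra*-positive cells given earlier. *Icam1* stood at 87.4 and 185, 131 and 264, and 39.2 and 49.6 CPM.

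**Figure D3:**
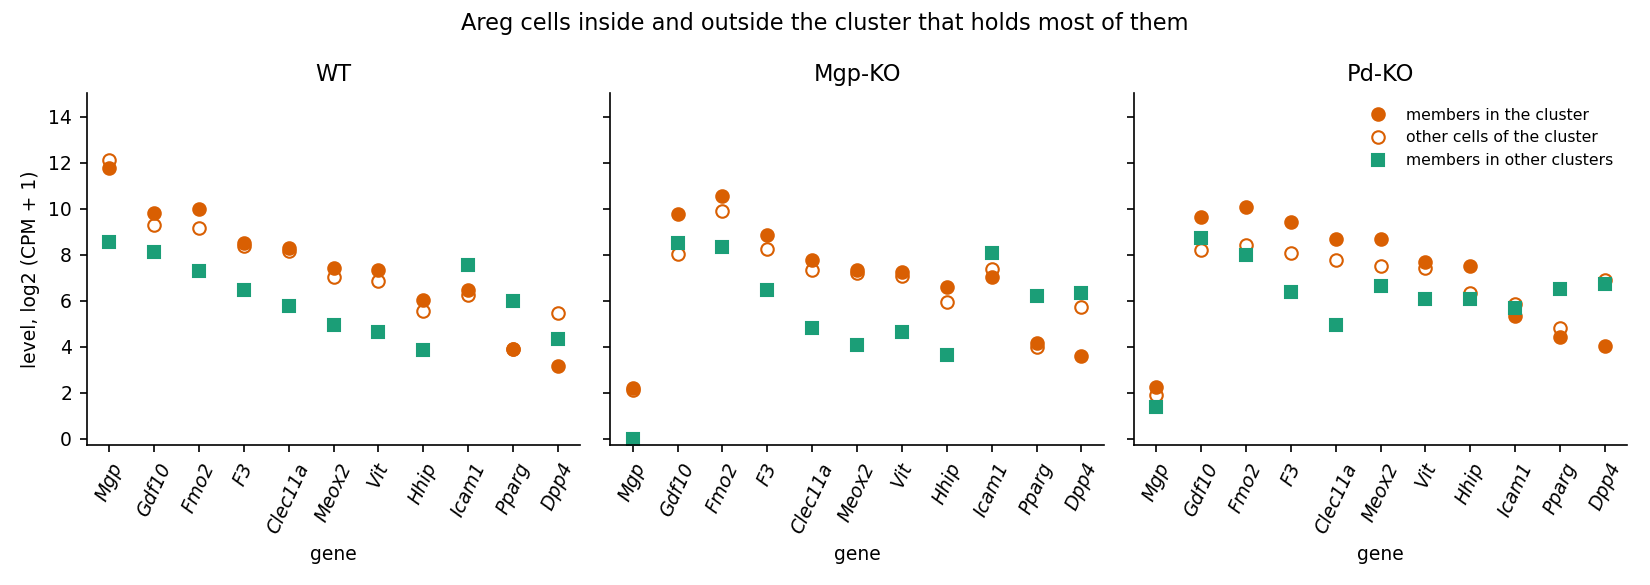
Level of 11 genes as log2 (CPM + 1) in Areg cells inside the cluster that holds most of them (filled circles), in cells of that cluster that failed the rule (open circles) and in Areg cells in other clusters (squares), with a panel for each library. Squares lie below the filled circles for the Areg markers and above them for *Pparg* in every panel; of the genes shown, *Mgp*, *Gdf10* and *Fmo2* were left out of the clustering.

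The frequency of Areg cells was higher in WT than in either knockout by each of 3 ways of counting. By the rule 9.76% of *Pdgfra*-positive cells were Areg cells in WT (9.11 to 10.4), 4.77% in *Mgp*-KO (4.34 to 5.23) and 5.18% in *Pd*-KO (4.65 to 5.75). The rule asks for UMI minimums, so its share moves with depth. With every cell thinned to 3000 UMIs the shares were 5.71% (256 of 4481 cells), 2.95% (182 of 6165) and 3.29% (137 of 4160), and their intervals were 5.05 to 6.43, 2.54 to 3.41 and 2.77 to 3.88. Only 29.2%, 43.5% and 39.7% of the Areg cells passed the rule again when thinned. Counted by the cluster that held most of them, the shares were 11.8% (11.1 to 12.6), 6.79% (6.28 to 7.33) and 8.99% (8.30 to 9.72). The order of the knockouts had overlapping intervals by the rule at both depths and did not overlap by the cluster. All 3 ways count among *Pdgfra*-positive cells. Of these, 2327 of 7702 were *Pi16*-high in WT, 3549 of 9099 in *Mgp*-KO and 3552 of 6374 in *Pd*-KO. The part of this difference in the shares was not tested. Of all cells, Areg cells by the rule were 7.15%, 3.45% and 3.74%. Counting error is the only error that the intervals hold, and the spread between mice is unknown.

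The libraries differed in their mix of sexes. Of the Areg cells whose sex could be called from sex-linked genes, 45.4% were female in WT, 78.6% in *Mgp*-KO and 51.2% in *Pd*-KO, and the other *Pdgfra*-positive cells gave 48.1%, 78.5% and 42.9%. Within females Areg cells were 9.03% of *Pdgfra*-positive cells in WT, 4.46% in *Mgp*-KO and 5.97% in *Pd*-KO. Within males they were 9.97%, 4.43% and 4.34%. WT was highest within each sex.

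**Figure D4:**
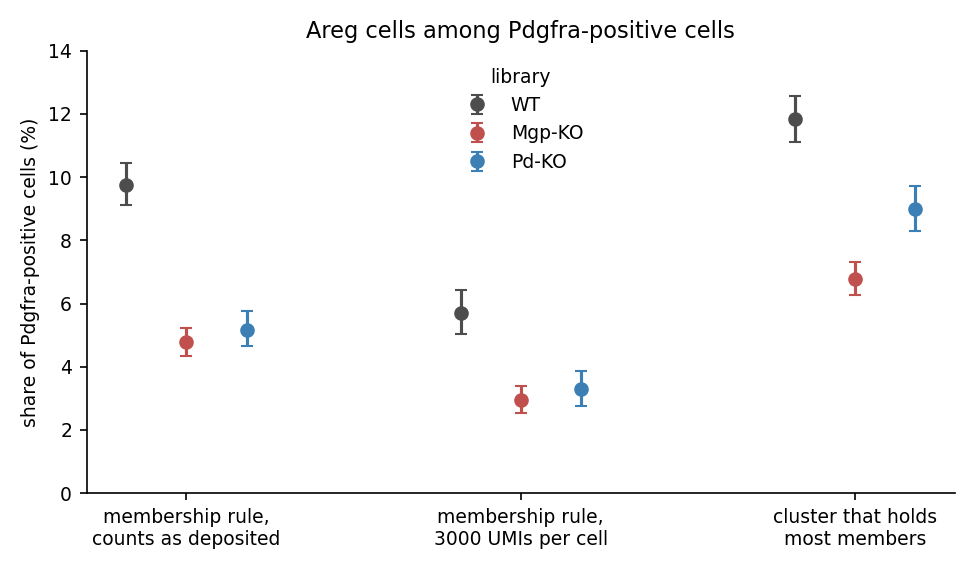
Share of *Pdgfra*-positive cells (vertical axis, percent) that were Areg cells in each library, by the membership rule on counts as deposited, by the rule with every cell thinned to 3000 UMIs, and as cells of the cluster that holds most members. Bars are exact 95% binomial intervals; WT lies above both knockouts in each group.

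Gene expression of knockout Areg cells was then set against WT. The deleted gene *Mgp* was left out of this comparison. Of 6006 other genes with a mean of at least 20 CPM in Areg cells, 793 (13.2%) were higher by 2-fold or more in both knockouts. Another 20 (0.333%) were lower. The ratios followed the genomic length of the gene. In genes that span under 20 kb (2408 genes) the median log2 ratio in Areg cells was -0.10 for *Mgp*-KO and -0.14 for *Pd*-KO, and in genes of 100 kb or more (1101 genes) it was 1.25 and 1.57. The other *Pdgfra*-positive cells gave 1.29 and 1.57 for the long genes. Only 7 of the 793 higher genes span under 20 kb, against 19 of the 20 lower ones. The study's methods give default settings of Cell Ranger 6.1.1, a version that no header names, and the default for counting intron reads differs between the versions in the headers. Software version, depth and genotype cannot be told apart here. The 10 highest genes, among them *Prkg1*, *Magi2*, *Sdk1* and *Csmd1*, all span more than 100 kb.

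With *Mgp* left out, the 10 lowest genes included AY036118, *Gm42418* and *Lars2*. They stood at 1497, 29248 and 532 CPM in WT Areg cells, 70.7, 1355 and 58.8 in *Mgp*-KO and 235, 5144 and 132 in *Pd*-KO. Those loci were also lower in the other *Pdgfra*-positive cells of both knockouts, where *Gm42418* stood at 23717, 1531 and 4638 CPM. In *Mgp*-KO the log2 ratio of *Gm42418* was -4.43 in Areg cells and -3.95 in the others, and that of *Lars2* was -3.17 and -2.71. *Apoe*, apolipoprotein E, stood at 7372 CPM in WT Areg cells, 3648 in *Mgp*-KO and 1755 in *Pd*-KO. *Angptl4*, an inhibitor of lipoprotein lipase, stood at 304, 135 and 134 CPM and *Hes1*, a Notch target, at 144, 56.9 and 61.1 CPM. *Apoc1*, *Acta2*, *Vtn* and *S100a4* completed the 10. For 8 of them the difference from the other *Pdgfra*-positive cells lay within 1 on the log2 scale in both knockouts; *Acta2* in *Mgp*-KO (-2.59) and *Apoe* in *Pd*-KO (1.26) went beyond.

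To take off what moved in all *Pdgfra*-positive cells of a library, the genotype ratio in the others was subtracted from that in Areg cells. The others differed in make-up between libraries. *Pi16*-high cells, which are among them, were 2327 of 7702 *Pdgfra*-positive cells in WT, 3549 of 9099 in *Mgp*-KO and 3552 of 6374 in *Pd*-KO. The part of this in the differences was not tested. The subtraction left 20 genes (0.333%) higher by 2-fold or more in both knockouts and 4 (0.0666%) lower among the 6006. In cells of the main cluster, an alternative added after the data were seen, the counts were 43 and 20, and with thinned cells 33 were higher. *Csmd1*, a complement regulator with a very long gene, led with differences of 1.97 in *Mgp*-KO (1.33 to 2.60) and 2.88 in *Pd*-KO (2.26 to 3.49). It stood at 2.50 CPM in WT Areg cells, 70.7 in *Mgp*-KO and 215 in *Pd*-KO, against 2.63, 18.7 and 30.2 CPM in the others. In *Pd*-KO 36.1% of its Areg UMIs came from 5 cells. *Ifitm1*, an interferon-induced membrane protein with a short gene, stood at 75.7, 199 and 79.8 CPM in Areg cells and 31.3, 25.8 and 15.3 in the others. Its differences were 1.67 and 1.11, so in *Pd*-KO the difference came from the other cells. *Ndufa4l2*, a hypoxia-induced mitochondrial protein, stood at 105, 56.5 and 126 CPM against 31.3, 7.16 and 16.9. *Lvrn*, an aminopeptidase, and *Nav3* were the lowest, with differences of -1.10 and -1.79, and -1.09 and -1.94. *Lvrn* stood at 25.6, 80.2 and 58.3 CPM in Areg cells and 6.67, 44.8 and 52.6 in the others. The comparisons of both knockouts share the WT cells.

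The 2 knockout libraries named the same software version and were compared with each other. Of the 6006 genes 136 (2.26%) were higher in *Pd*-KO Areg cells by 2-fold or more and 166 (2.76%) were lower. After subtraction of the other *Pdgfra*-positive cells 51 (0.849%) were higher and 14 (0.233%) lower. Of the 15 genes highest in Areg cells, 6 were higher by 2-fold or more in *Pd*-KO and none was lower, while *Ccbe1* (0.05), *C2* (0.04) and *Gria4* (0.24) had log2 ratios near 0. *Tspan11* was higher by a log2 ratio of 2.07 (1.84 to 2.32) in Areg cells and 0.91 in the others, *Meox2* by 1.63 (1.44 to 1.84) and 1.10, and *Hhip* by 1.25 (0.98 to 1.52) and 0.33. *Ntrk3*, a neurotrophin receptor, stood at 28.7 CPM in *Mgp*-KO and 116 in *Pd*-KO. Of 9 Hedgehog genes tested 4, among them *Ptch1*, *Hhip* and *Boc*, were higher by 2-fold or more and none was lower, with a list median of 0.80 against 0.10 for all genes; after subtraction 0 of 9 were past 2-fold.

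These differences were smaller when cells were chosen without the rule. Among all cells of the main cluster *Tspan11* was higher in *Pd*-KO by 1.56, *Meox2* by 0.89 and *Hhip* by 0.68 on the log2 scale. The share of Areg cells inside that cluster was 81.2% in *Pd*-KO and 72.8% in *Mgp*-KO. The part of this share in the result was not tested. Within females the log2 ratios of *Tspan11*, *Meox2* and *Hhip* were 2.25, 1.94 and 1.88, and within males 1.91, 1.42 and 1.75. The direction of these 3 genes was therefore the same in both sexes and in both definitions of the cells. *F3* was less steady, at 0.71 over all Areg cells, 0.41 in females, 1.48 in males and 0.23 in the cluster.

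*Acta2* had the highest ratio between the knockouts, 2.55, at 5.35 CPM in *Mgp*-KO and 32.3 in *Pd*-KO. It rested on 14 UMIs in *Mgp*-KO and 81 in *Pd*-KO, of which 61.7% lay in 5 cells, and the ratio was -0.47 in the main cluster. The mural list moved with it, at 63.8 CPM in *Mgp*-KO and 154 in *Pd*-KO, and its part in the result was not tested. The lowest ratios belonged to *Gm10260*, at 92.7 CPM in WT, 101 in *Mgp*-KO and 0.399 in *Pd*-KO, *Has1*, a hyaluronan synthase, at 27.2, 204 and 17.2 CPM, and *Hspa1a*, *Atf3* and *Ccl7*. Dissociation stress genes made a group of their own: 13 of 15 were lower by 2-fold or more in *Pd*-KO Areg cells than in *Mgp*-KO and none was higher, with a list median of -1.66. Of all genes tested in this contrast 2.76% were lower and 2.26% higher. *Fos* stood at 1983 CPM in WT, 3498 in *Mgp*-KO and 1106 in *Pd*-KO, and *Hspa1a* at 330, 357 and 41.5. *Icam1*, also known to be induced by inflammatory stimuli, stood at 120, 180 and 41.9 CPM. After subtraction of the other *Pdgfra*-positive cells 0 of the 15 stress genes were past 2-fold, and *Fos* in those cells stood at 1735, 2610.4 and 750 CPM.

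**Figure D5:**
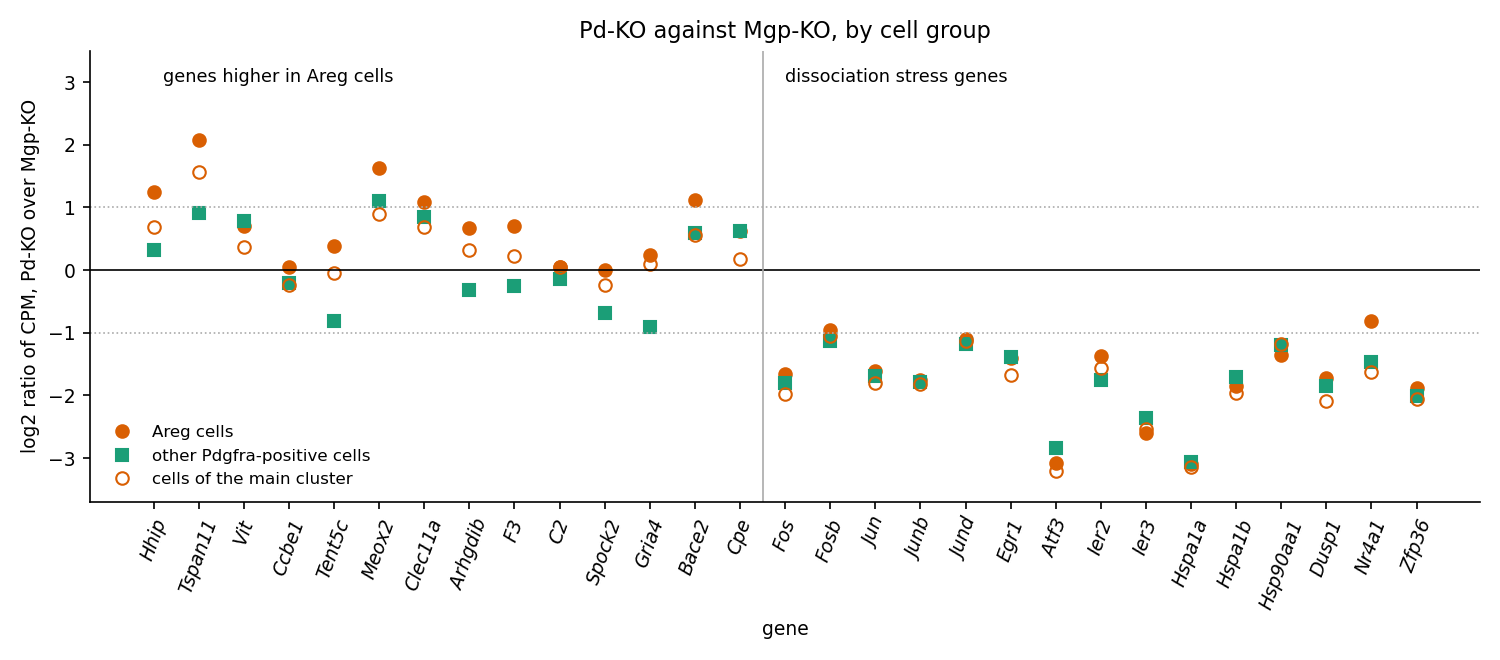
Log2 ratio of CPM in *Pd*-KO over *Mgp*-KO (vertical axis, dotted lines mark 2-fold) for 14 of the 15 genes highest in Areg cells and for 15 dissociation stress genes, in Areg cells (filled circles), other *Pdgfra*-positive cells (squares) and all cells of the main cluster (open circles). *Tspan11*, *Meox2* and *Hhip* lie above 1 in Areg cells and lower in the cluster, and 13 of the 15 stress genes lie below -1 in Areg cells.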

How the data were processed

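Libraries were 10x Genomics 3′ single-cell RNA-seq, 1 per genotype. The deposited values are whole-number UMI counts of 32285 genes in every barcode, without selection of cells or normalization by the authors. The file headers name Cell Ranger 4 (WT) and 7.1.0 (both knockouts), the submitters' processing notes Cell Ranger 6.1.1 and GRCm39, and the study's methods the same version at its default settings with mm10. Intron counting is set by default and differs between the versions in the headers. Total counts were 184102026 (WT), 93212243 (*Mgp*-KO) and 83942865 (*Pd*-KO) UMIs. No per-sample column was left unused.

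Membership was read from the deposited counts by the rule given above. Doublets were not called. Cells over 30000 UMIs were left out as an alternative. The members and all gene lists were chosen with earlier results of these data known, and the lists support no test. UMIs were summed over cells per library. Ratios are log2 of CPM with 0.5 counts added, for genes with a mean of at least 20 CPM over the 3 libraries. Intervals are exact Poisson (levels), exact Clopper-Pearson (shares), conditional binomial (ratios) and from the delta method (differences of ratios). A count of 0 was given the limit of 3 counts in the summed UMIs. With 1 library per genotype no p-value was computed. Endothelial cells had at least 2 *Pecam1* UMIs and no *Pdgfra*. *Icam1*-positive cells had at least 2 *Icam1* and at most 4 *Pi16* UMIs. Free RNA came from barcodes of 10 to 100 UMIs. Cells were thinned to 3000 UMIs, which left out 1, 32 and 13 Areg cells. Clusters were Leiden communities on 2000 variable genes, 30 principal components and 20 neighbours at resolution 0.5. Genomic spans came from the GENCODE annotation of GRCm38 and covered 100% of tested genes.

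Genes were named by rule: *Mgp* and the markers, the 15 highest and 10 lowest ratios of Areg over other cells with a mean of at least 50 CPM, the 10 highest and 10 lowest in knockouts over WT, and the 5 highest and 5 lowest in each remaining contrast. Rankings of Areg over other cells hold no gene of the membership rule, and those of knockouts over WT leave out *Mgp*. The Hedgehog list, and which members of the other lists are named, were chosen after their values were seen. Some genes that the rule or the lists would name are not reported here. Procedures were tested on simulated counts. Python 3.11.15, numpy 2.4.6, scipy 1.17.1, pandas 2.3.3, scanpy 1.11.5, anndata 0.12.19, igraph 0.11.9, scikit-learn 1.9.0 and matplotlib 3.10.9 were used.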

Additional observations from a re-analysis of the deposited data

How the results depend on the processing

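No paired analysis was possible because there is 1 library per genotype, and no library could be left out of a genotype. Across the other settings 79 summary values stayed within the limits set and 35 moved, and for single genes 1570 stayed and 458 moved, none in sign. Alternatives chosen after seeing the data were the cells of the main cluster, leaving out the WT library, and thinning for the difference of genotype ratios. Under them 379 single-gene values stayed, 314 moved and 3 changed sign, all in *Pd*-KO over *Mgp*-KO among cells of the main cluster: *Acta2* (-0.47), *Tagln* (-0.41) and *Slit2* (0.27). The cause was not tested.

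Counts of genes past 2-fold followed the level required. For Areg over other cells, 145 higher genes became 235 at 5 CPM and 89 at 50 CPM, and 118 lower genes became 264 and 64, and 189 without the WT library. For knockouts over WT, 793 higher genes became 1326 and 373, and 7 under 20 kb of span, and 20 lower genes became 39 and 13. For *Pd*-KO over *Mgp*-KO, 136 higher genes became 430 and 58, 226 when thinned and 31 under 20 kb, and 166 lower genes became 344 and 106, and 102 under 20 kb. For the difference of genotype ratios, 20 higher genes became 33 when thinned and 43 in the main cluster, where 4 lower genes became 20. A higher level or a span limit tests fewer genes by construction.

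Shares in WT, *Mgp*-KO and *Pd*-KO were 11.8%, 7.30% and 6.40% with 1 *Gdf10* UMI, 8.47%, 3.15% and 3.95% with 3, 7.82%, 3.91% and 4.13% with 2 *Fmo2* UMIs, 5.71%, 2.95% and 3.29% when thinned and 11.8%, 6.79% and 8.99% by the main cluster. WT also moved to 8.67% with at most 2 *Pi16* UMIs and *Mgp*-KO to 3.62% at 5000 UMIs or more. WT was highest in each. *Mgp* in WT Areg cells was 3075 CPM with cells weighted equally, 3086 thinned, 2165 with 1 *Gdf10* UMI, 2629 with 3 and 3856 in the main cluster. At resolution 1 the main WT cluster held 66.0% of Areg cells. Depth moves the rule's share in all 3 libraries, as the thinned values show.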
